A study of Rattus norvegicus with 9 samples.

Results

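The 10 genes described here, Rprml, Car3, Pck1, Aoc1, Prom1, Tmem178a, Unc79, Lhfpl3, Sytl2 and Dnah7, were picked from 14217 genes measured in rat lung fibroblasts because their signal was much higher at postnatal day 7 than at day 2 or much lower at day 21 than at day 7. They were chosen with their values known and with no numeric limit, so their own differences between days are given as a description, without a test. Expression was measured on 9 single-colour Affymetrix arrays, 3 per day. The day 2 samples, labelled as the saccular stage before septation, were each a pool of cells from 5 pups of a litter. The day 7 samples, labelled as progressing secondary septation, and the day 21 samples, labelled as septation ended, were each a pool from 4 pups of a litter. Litters were numbered 1 to 3 on each day. The labels name no strain, mutation or treatment. The cells were those that stuck to plastic within a short plating after trypsin and collagenase, with no sorting, so the samples can hold other adherent cells of the lung.

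Secondary septation subdivides the air spaces of the newborn lung into alveoli, and fibroblasts of the septa lay down elastin and collagen and store lipid while it proceeds. The 10 genes belong to no single pathway. They encode 3 metabolic enzymes (Pck1, Car3, Aoc1), 2 membrane proteins of protrusions and calcium stores (Prom1, Tmem178a), and an accessory subunit of an ion channel (Unc79). The others encode a relative of a cell cycle inhibitor (Rprml), a membrane protein of little-known function outside the brain (Lhfpl3), an adaptor of secretory vesicles (Sytl2) and a motor protein of motile cilia (Dnah7). The array carried 12 probe sets for them, 2 each for Car3 and Unc79 and 1 each for the other 8, and the brightest probe set over all arrays represents a gene. Values are log2 intensities, where a difference of 1 is a doubling, and the 25th percentile of all values on the 9 arrays, a log2 intensity of 4.25, is called the low end below.

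RefSeq promoters on the build GRCr8 were found for 8 of the 10 genes, Car3 and Sytl2 having no entry, and the 250 bases before the annotated start are shown for 3 of them because they hold different sets of the motifs searched. Capitals mark 7 motifs, each searched on both strands. Basal promoter motifs were TATAAA, known as the TATA box, the box read CCAAT, and the GC box, read GGGCGG. Motifs of regulated promoters were the cAMP response element in its full form, TGACGTCA, and its short form, TGACG, the core motif of nuclear receptors, AGGTCA, and the core of the X-box of cilia genes, GTTGCC. The short cAMP response element lies inside the full one. The Pck1 promoter is chr3:182348322-182348571 on the plus strand, the Rprml promoter chr10:89060030-89060279 on the plus strand, and the first of 2 Prom1 entries chr14:71202395-71202644 on the plus strand.
Pck1: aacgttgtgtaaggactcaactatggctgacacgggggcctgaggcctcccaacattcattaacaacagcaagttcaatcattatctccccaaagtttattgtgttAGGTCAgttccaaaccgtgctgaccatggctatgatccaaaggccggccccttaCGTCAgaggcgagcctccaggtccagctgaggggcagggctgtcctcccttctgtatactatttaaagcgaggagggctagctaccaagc
Rprml: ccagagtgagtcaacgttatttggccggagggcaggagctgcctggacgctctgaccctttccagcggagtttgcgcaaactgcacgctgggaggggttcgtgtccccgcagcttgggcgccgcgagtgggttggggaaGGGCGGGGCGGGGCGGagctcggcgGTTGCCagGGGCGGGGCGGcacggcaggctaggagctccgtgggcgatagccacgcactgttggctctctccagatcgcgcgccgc
Prom1: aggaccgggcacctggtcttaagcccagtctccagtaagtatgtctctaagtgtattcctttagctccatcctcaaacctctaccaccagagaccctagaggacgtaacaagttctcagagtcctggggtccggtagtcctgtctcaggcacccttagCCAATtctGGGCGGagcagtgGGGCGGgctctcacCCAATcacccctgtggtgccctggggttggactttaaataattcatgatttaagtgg
The Pck1 window held AGGTCA from 144 bases before the start, and the short cAMP response element on the minus strand, read there as CGTCA, from 90 bases before it. AGGTCA was in 14.1% and TGACG in 18.2% of 33469 promoters of the same length. The Rprml window was 69.6% G and C, against a median of 51.2% over all promoters, and held 5 GC boxes and a GTTGCC 86 bases before the start. The Prom1 window held 2 CCAAT boxes, 92 and 57 bases before the start, with GC boxes 84 and 71 bases before it. The second Prom1 entry held none of the marked motifs. Over the 8 genes, with a match in any entry of a gene counted, a GC box was found in 4 (Lhfpl3, Prom1, Rprml and Tmem178a). The share over all promoters, counted by entry, was 30.5%. TGACG was found in 2 of the 8 genes (Aoc1 and Pck1). The other marked motifs were each in at most 1, against 12.9% of all promoters for TATAAA, 34% for CCAAT, 1.59% for TGACGTCA and 9.89% for GTTGCC. The marked motifs were searched as exact letters, so a variant form, in Dnah7 or any other gene, was not counted. The E-box, CANNTG with N for any base, was also searched but not marked. It was in 5 of the 8 genes (Dnah7, Lhfpl3, Pck1, Prom1 and Tmem178a) and in 65.5% of all promoters. No motif was shared by all 8 promoters, and a match shows only that the letters are there.

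The mean of every one of the 10 genes was highest at day 7, and for 8 of them all 3 day 7 arrays were above all 6 arrays of days 2 and 21, as were 16.4% of all 14217 genes. The exceptions were Aoc1, whose day 7 and day 2 arrays overlapped, and Sytl2, whose day 21 and day 7 arrays overlapped. The median difference over the 10 genes was 1.73 between day 7 and day 2 and -3.67 between day 21 and day 7, while the medians over all genes were 0.07 and -0.01. Day 21 ended below day 2 for 9 of the 10 means, and without overlap for 8, as for 24.5% of all genes. The genes therefore formed 3 shapes: a high day 7 between 2 low days (Lhfpl3, Dnah7, Pck1), a high day 7 followed by a level far below that of day 2 (Rprml, Car3, Prom1, Unc79, Tmem178a), and the 2 exceptions. These shapes were drawn after the values were seen. The drop of Car3 below day 2 and the whole shape of Unc79 were seen by the brighter probe set only. At day 21 the means of 5 genes (Rprml, Pck1, Aoc1, Unc79 and Dnah7) were below the low end, so the size of their decline is uncertain. Those of Car3 (4.34) and Lhfpl3 (4.30) were just above it. With values below the low end set to it, the differences between day 21 and day 7 were -4.46 for Rprml, -1.96 for Pck1, -4.33 for Aoc1, -4.32 for Unc79 and -1.63 for Dnah7.

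**Figure D1:**
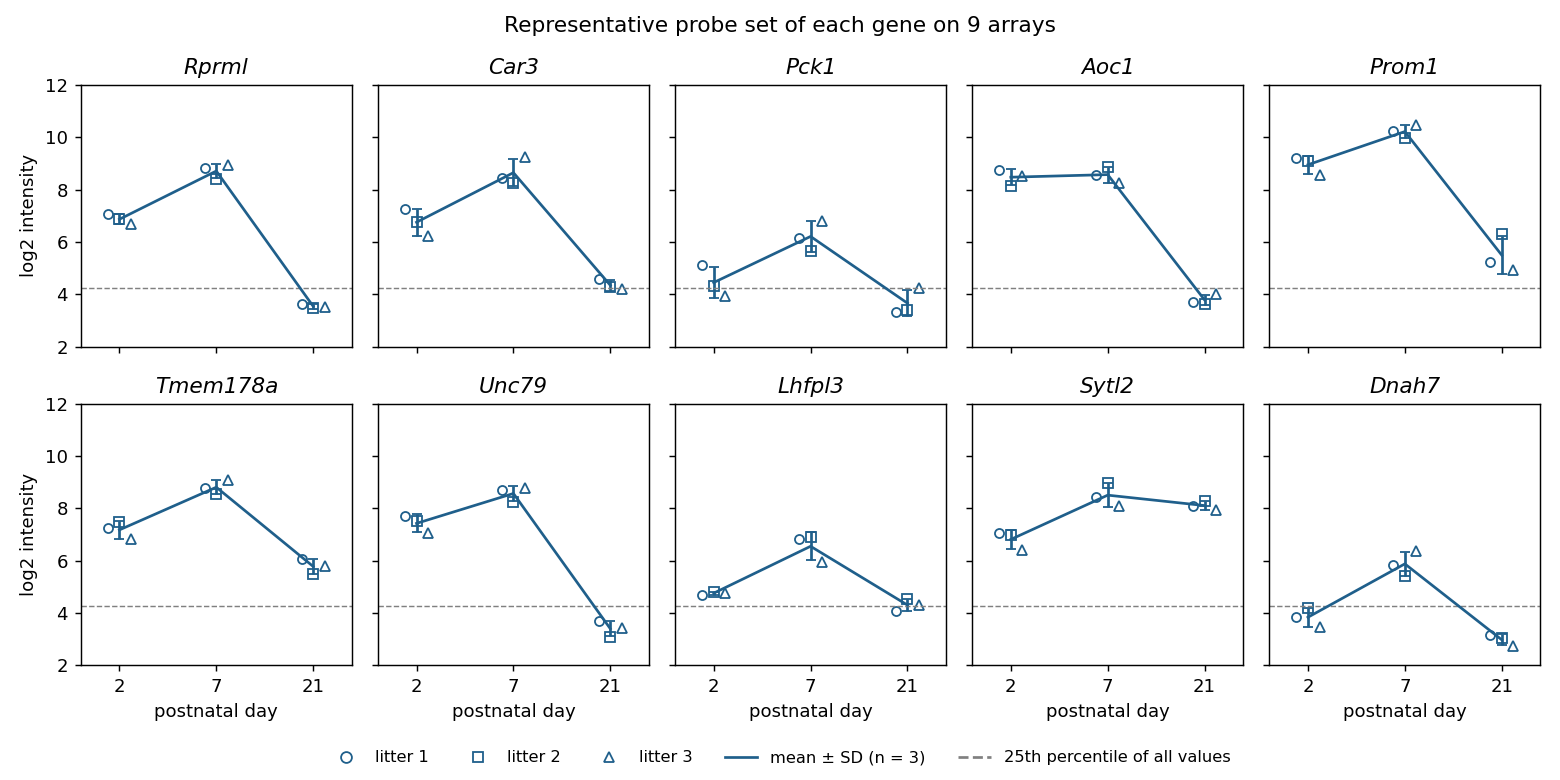
Log2 intensity (vertical axis) of the representative probe set of each of the 10 genes at postnatal days 2, 7 and 21 (horizontal axis), with a symbol for each litter, lines through the day means, bars of 1 SD (n = 3) and a dashed line at the low end of 4.25. Aoc1 is level between days 2 and 7, Sytl2 stays high at day 21, and the other 8 genes are highest on the 3 day 7 arrays.

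Among the enzymes, Pck1 encodes the cytosolic phosphoenolpyruvate carboxykinase, which feeds gluconeogenesis in liver and glycerol synthesis in fat. Its log2 intensity was 5.11, 4.31 and 3.92 on the day 2 arrays, 6.16, 5.66 and 6.81 on the day 7 arrays, and 3.33, 3.42 and 4.24 on the day 21 arrays. All day 7 arrays stood above the rest, while days 2 and 21 overlapped near the low end. The day 7 mean was 1.76 ± 0.35 above day 2 (± SE from limma, used for all differences), or 3.39-fold, and the day 21 mean was 5.86-fold below day 7. Pck1 had the widest spread within a day 2 or day 7 group of the 10 genes, with SDs of 0.61 and 0.58.

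Car3, carbonic anhydrase 3, is a carbonic anhydrase of low activity that is abundant in fat, liver and slow skeletal muscle. Its brighter probe set (1367896_at) read 7.26, 6.78 and 6.22 at day 2, 8.44, 8.27 and 9.24 at day 7, and 4.58, 4.26 and 4.19 at day 21. The 3 days did not overlap. Its day 7 mean was 3.72-fold above day 2, and its day 21 mean was 19.8-fold below day 7 and 5.31-fold below day 2. That day 21 mean, 4.34, was close to the low end, with 1 array below it, so the size of these declines is less certain. The dimmer probe set (1386977_at) read 5.92, 5.45 and 5.32 at day 2, 6.66, 6.90 and 7.43 at day 7, and 4.99, 5.65 and 5.70 at day 21. It was likewise highest at day 7, 2.70-fold above day 2, but its day 21 mean was 2.93-fold below day 7 and overlapped with day 2. Thus the high day 7 level was seen by both probe sets, with a correlation of 0.82 over the 9 arrays, and the drop of day 21 below day 2 by the brighter one only.

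Aoc1 encodes diamine oxidase, a secreted copper enzyme that breaks down histamine and putrescine. It read 8.74, 8.14 and 8.54 at day 2, 8.58, 8.87 and 8.27 at day 7, and 3.70, 3.63 and 4.01 at day 21. Days 2 and 7 overlapped, with means that differed by 0.10 ± 0.21, and every day 21 array was below the low end. The day 21 mean was 27.7-fold below day 7 and 25.8-fold below day 2. Aoc1 thus had no day 7 peak beyond the spread between litters, and ranked 6625 of 14217 genes by its difference between day 7 and day 2.

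Prom1, prominin 1 (CD133), is a cholesterol-binding protein of membrane protrusions and a common marker of stem and progenitor cells. It read 9.21, 9.09 and 8.55 at day 2, 10.24, 9.96 and 10.46 at day 7, and 5.25, 6.31 and 4.93 at day 21. The 3 days did not overlap, and the day 21 litters differed most, with litter 2 above the other 2. On average day 7 was 2.41-fold above day 2, and the day 21 mean was 26.4-fold below day 7 and 11-fold below day 2, yet stayed above the low end.

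Tmem178a encodes a membrane protein of the endoplasmic reticulum that in mouse osteoclasts binds the calcium sensor STIM1 and limits calcium entry. Its values were 7.23, 7.47 and 6.81 at day 2, 8.78, 8.55 and 9.08 at day 7, and 6.05, 5.47 and 5.80 at day 21. Each day stood apart from the others, and no array was near the low end. Mean signal at day 7 was 3.10-fold above day 2, and the day 21 mean was 8.16-fold below day 7 and 2.63-fold below day 2.

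Unc79 encodes a large accessory subunit of the sodium leak channel NALCN, known from neurons. Its brighter probe set (1394760_at) read 7.72, 7.50 and 7.05 at day 2, 8.68, 8.24 and 8.77 at day 7, and 3.67, 3.09 and 3.42 at day 21. All day 21 arrays were below the low end. Its mean at day 7 was 2.21-fold above day 2, and the day 21 mean was 36.0-fold below day 7. The dimmer probe set (1398689_at) did not show this: it read 5.21, 4.91 and 4.53 at day 2, 5.45, 5.24 and 4.67 at day 7, and 4.14, 4.95 and 4.53 at day 21. Its 3 days all overlapped, its day 21 mean was 1.5-fold below day 7, and its correlation with the brighter probe set was 0.58 over the 9 arrays. The Unc79 profile therefore rests on 1 of its 2 probe sets.

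**Figure D2:**
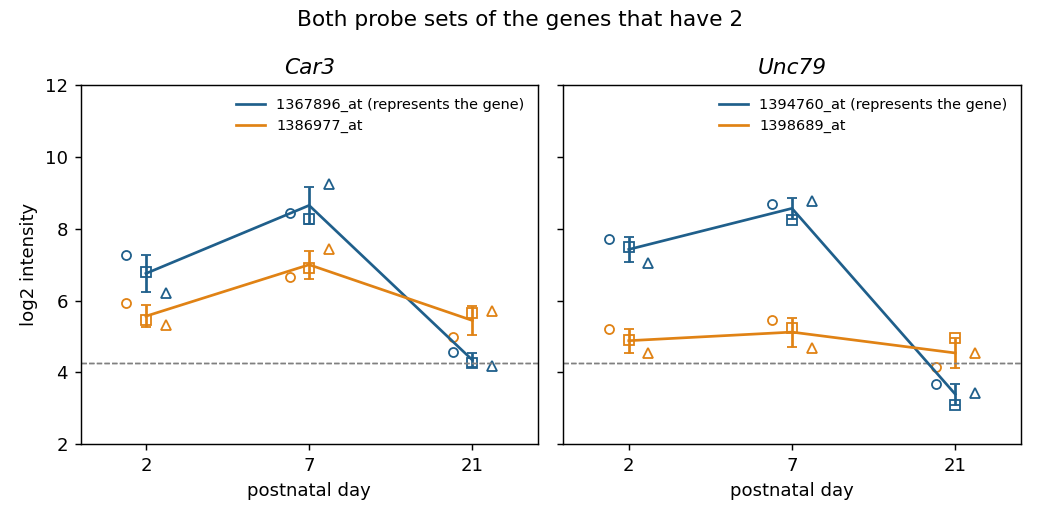
Log2 intensity (vertical axis) at postnatal days 2, 7 and 21 (horizontal axis) of both probe sets of Car3 and of Unc79, with a symbol for each litter (circle 1, square 2, triangle 3), lines through day means, bars of 1 SD (n = 3) and a dashed line at the low end. For Car3 both lines are highest at day 7, while for Unc79 the dimmer probe set stays between 4.14 and 5.45 on all arrays.

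Rprml, reprimo-like, is a relative of reprimo, a mediator of p53-dependent arrest at the G2 stage of the cell cycle. It read 7.05, 6.88 and 6.67 at day 2, 8.81, 8.39 and 8.93 at day 7, and 3.64, 3.48 and 3.50 at day 21. The 3 days were far apart and the litters of a day close together, with SDs of 0.19, 0.28 and 0.09 at days 2, 7 and 21. The day 7 mean was 3.59-fold above day 2, and the day 21 mean was 36.0-fold below day 7 and 10.0-fold below day 2. All day 21 arrays were below the low end, and with values set to it the difference between day 21 and day 2 was -2.62 in place of -3.33. Rprml ranked 4 of 14217 genes by its difference between day 7 and day 2, where no array was below the low end.

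Lhfpl3 belongs to a family of small membrane proteins with 4 passes through the membrane, and in brain it marks oligodendrocyte precursors. It read 4.68, 4.80 and 4.78 at day 2, 6.82, 6.89 and 5.93 at day 7, and 4.09, 4.53 and 4.29 at day 21. The day 7 arrays were above all others, litter 3 by the least. On average day 7 was 3.47-fold above day 2, and the day 21 mean was 4.74-fold below day 7. That day 21 mean, 4.30, was close to the low end, with 1 array below it, so the size of the decline is less certain.

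Sytl2, synaptotagmin-like 2, tethers vesicles that carry RAB27 to the plasma membrane. It read 7.06, 6.98 and 6.39 at day 2, 8.44, 8.98 and 8.08 at day 7, and 8.10, 8.27 and 7.94 at day 21. Days 21 and 7 overlapped and both were above day 2. The day 7 mean was 3.23-fold above day 2 and the day 21 mean still 2.45-fold above day 2, so Sytl2 was not lost by day 21. It was the single gene of the 10 with day 21 above day 2 without overlap, as were 18.5% of all genes.

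Dnah7 encodes a heavy chain of the inner dynein arms that drive motile cilia. It read 3.85, 4.19 and 3.47 at day 2, 5.84, 5.43 and 6.35 at day 7, and 3.16, 3.03 and 2.73 at day 21. All arrays of days 2 and 21 were below the low end, so the 4.11-fold difference between day 7 and day 2 and the 7.47-fold decline to day 21 were measured against values that hold little signal. Set to the low end on those days, the difference between day 7 and day 2 was 1.63 in place of 2.04.

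Between day 7 and day 2, 9 of the 10 genes were higher without overlap of the arrays, as were 21.1% of all genes. Limma at an adjusted p under 0.05 called 7.02% of all genes higher and 4.41% lower in that comparison. Between day 21 and day 7, 9 of the 10 genes were lower without overlap, as were 30.7% of all genes, and limma called 13.7% of all genes higher and 24.4% lower. Nothing is read from these shares for the 10 genes, since these differences chose them. The balance of calls over the whole array moved with scaling in some comparisons. Of the probe sets called, 61.5% were higher at day 7 than at day 2, but 41.5% with each array centred on its median. For day 21 against day 7 the share was 36.6%, 48.5% after quantile normalization and 48.0% after median centring, and for day 21 against day 2 it was 36.0%, 47.3% after quantile normalization and 39.6% after median centring. Median centring moved the median change of all genes from day 7 to day 21 by 0.11.

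**Figure D3:**
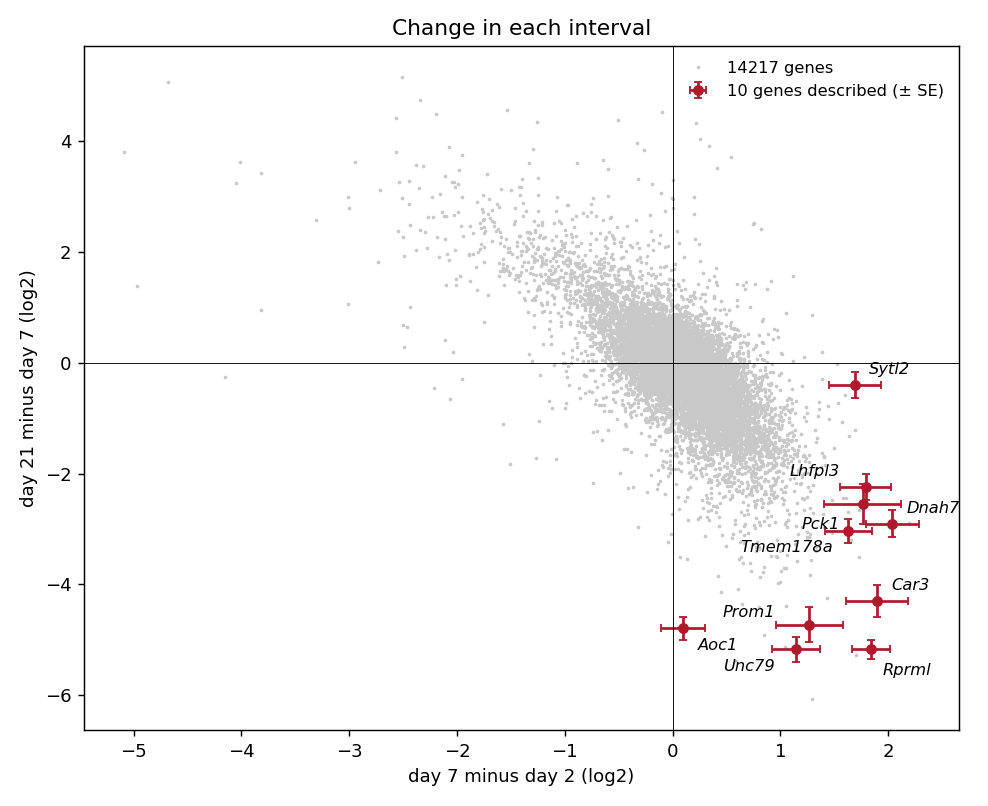
Change of each gene from day 2 to day 7 (horizontal axis, day 7 minus day 2, log2) and from day 7 to day 21 (vertical axis, day 21 minus day 7, log2), with 14217 genes in grey and the 10 described genes in red with bars of 1 SE. The day 7 mean enters both axes with opposite signs, and Aoc1 (0.10, -4.79) and Sytl2 (1.69, -0.40) lie apart from the other 8 genes.

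Among genes with a mean log2 intensity of at least 5, the 10 whose profile over the 9 arrays was most like the mean of the 10 standardised profiles were Hsd11b2, Poldip2, Cdc26, Six5, Pola2, Strada, Akip1, Bdh2, Ptdss2 and Selenot, with Pearson correlations of 0.997 for Hsd11b2 down to 0.993 for Selenot, out of 10139 genes. Hsd11b2, which inactivates glucocorticoids, had log2 means of 6.53, 8.26 and 4.76 at days 2, 7 and 21. The correlation compares shape and not the size of a change: Selenot moved far less, with means of 9.66, 10.00 and 9.36. For single genes, the most alike were Fgfr4 for Rprml (0.998), Slc25a12 for Prom1 (0.998), Depdc1 for Unc79 (0.996), P4htm for Sytl2 (0.996), Sucla2 for Car3 (0.995), Cdc26 for Tmem178a (0.992), Stil for Aoc1 (0.992), C7h8orf82 for Dnah7 (0.989), Akr1c14 for Lhfpl3 (0.986) and Adi1 for Pck1 (0.981). Next came Nnt and Spata24 for Rprml, Ptgr1 and Fgfr3 for Prom1, Hsd11b1 and Gyg1 for Unc79, C1galt1c1 and Id3 for Sytl2, and Kif3c and Bdh2 for Car3. They were Selenot and Recql for Tmem178a, Arxes1 and Trip13 for Aoc1, Ctnnal1 and Afap1l2 for Dnah7, Pde6d and Tm7sf3 for Lhfpl3, and Arap1 and Pcdhb19 for Pck1. Fgfr4 and Fgfr3 are receptors for fibroblast growth factors, and Hsd11b1 activates glucocorticoids. These correlations describe 9 points in 3 day groups and share the arrays and their scaling, and many genes reach high values in such a design.

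Known partners of the 10 genes were examined in 11 lists with 167 measured genes, of which limma called 10 (5.99%) higher and 8 (4.79%) lower at day 7 than at day 2, beside 7.02% and 4.41% of all genes. At day 21 against day 7 it called 34 (20.4%) higher and 28 (16.8%) lower, beside 13.7% and 24.4%. At day 21 against day 2 the counts were 25 (15.0%) higher and 16 (9.58%) lower, beside 8.8% and 15.3%. Both a rise to day 7 and a fall by day 21 were called for 6 of the 167 (3.59%) and for 6.11% of all genes: Car4, Foxo3, Lhfpl6, Nr2f1, Nr2f2 and Rab3d. The opposite course was called for 8 (4.79%), beside 3.76% of all genes, among them Arg1, Pparg, Plcg2 and Smox. Of the 18 partner calls between day 7 and day 2, 4 held under all alternatives tried (Arg1, Maob, Nr4a1 and Rab3b). Of those between day 21 and day 7, 47 of 62 held, and of those between day 21 and day 2, 19 of 41. Where a single partner is said below to have risen or fallen, the call held under all alternatives unless stated, and p-values are adjusted by Benjamini-Hochberg over all probe sets.

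Of 22 regulators of Pck1 transcription, 4 rose and 1 fell by day 7, and 5 rose and 6 fell between days 7 and 21. Nr2f1 and Nr2f2, the COUP transcription factors, which bind the Pck1 promoter in rat liver cells, fell by day 21. Nr2f1 had means of 5.86, 7.01 and 4.48 at days 2, 7 and 21 and fell by 2.53 ± 0.32 between days 7 and 21 (adjusted p = 9.79e-05), and Nr2f2 fell by 1.37 ± 0.16 (adjusted p = 4.97e-05). The insulin receptor Insr fell by 1.59 ± 0.27 (adjusted p = 0.000762) and its substrate Irs1 fell by 1.46 ± 0.15 (adjusted p = 1.95e-05). Pparg, the nuclear receptor of fat cells that activates Pck1 there, rose by 1.17 ± 0.18 between days 7 and 21 (adjusted p = 0.000343), while Pck1 was lower. Nr4a1, an orphan nuclear receptor, rose by 1.08 ± 0.15 by day 7 (adjusted p = 0.00193) and had a day 21 mean of 10.30, against 10.60 at day 7. Among 19 genes of gluconeogenesis and glycerol synthesis, 0 were called between day 7 and day 2 by limma (0 higher and 3 lower at an unadjusted p under 0.05), and 5 rose and 2 fell by day 21. Gpd1, which makes glycerol phosphate, rose by 2.13 ± 0.33 (adjusted p = 0.000394), Aldoa, aldolase A, by 1.57 ± 0.27 (adjusted p = 0.000744), and Fbp1, fructose bisphosphatase, by 1.02 ± 0.21 (adjusted p = 0.00268). Pck2, the mitochondrial form of the enzyme, had means of 7.11, 7.07 and 6.55 and was not called.

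Among 13 carbonic anhydrases beside Car3, 1 rose and 1 fell by day 7, and 1 rose and 2 fell between days 7 and 21. Car2, the widespread fast cytosolic form, fell by 1.80 ± 0.17 by day 21 (adjusted p = 9.17e-06), with means of 9.17, 9.54 and 7.74 at days 2, 7 and 21. Car5b, a mitochondrial form, rose by 2.01 ± 0.28 (adjusted p = 0.000174). Car4, a form anchored to the cell surface, had means of 5.05, 5.73 and 4.81, and fell by 0.92 by day 21 (adjusted p = 0.00255, and an adjusted p of 0.0559 with the mean of its probe sets). Its rise to day 7 (adjusted p = 0.0445) was lost in 12 of 16 alternatives, among them without any 1 of the day 2 litters, of the day 7 litters 1 and 2 or of the day 21 litters 1 and 2, with adjusted p up to 0.161. Car8 had means of 5.58, 5.84 and 6.51 and was not called.

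In polyamine and histamine metabolism, 1 of 30 genes beside Aoc1 rose and 2 fell by day 7, and 7 rose and 5 fell between days 7 and 21. Hdc, which makes histamine, rose by 2.24 ± 0.34 by day 21 (adjusted p = 0.000308), from a day 7 mean of 3.66 that is below the low end. Hdc is also a gene of mast cells, and the granulocyte and mast cell list of 9 genes had array means of 5.75 to 7.39 at day 21, against 4.30 to 4.88 at day 7, with 6 of its genes called higher. Over all genes 13.7% were called higher between these days. Cpa3, a mast cell protease, had a mean of 8.78 at day 21, against 4.40 at day 7. Its part in the Hdc result was not tested. Arg1, arginase 1, fell by 2.29 ± 0.33 by day 7 (adjusted p = 0.00224) and rose by 2.37 ± 0.33 by day 21 (adjusted p = 0.00017), the course opposite to that of the 8 genes with a day 7 peak, and Arg2, the mitochondrial arginase, rose by 1.20 ± 0.23 by day 21 (adjusted p = 0.00185). Odc1 and Sat1, which control polyamine synthesis and breakdown, rose by 0.83 ± 0.15 (adjusted p = 0.00145) and 0.62 ± 0.14 (adjusted p = 0.00413) by day 21, and Sat2 fell by 1.54 ± 0.18 (adjusted p = 5.5e-05). Maob, a monoamine oxidase, rose by 1.52 ± 0.24 by day 7 (adjusted p = 0.00336) and its day 21 and day 7 means were 6.28 and 6.29, a course like that of Sytl2. Aoc3, the relative of Aoc1 on cell surfaces, had means of 9.89, 10.18 and 9.29, and its fall by day 21 (adjusted p = 0.0243) was lost in 6 of 16 alternatives, 4 of which left out litter 1 or 3 of day 7 or litter 2 or 3 of day 21, with adjusted p up to 0.168. Hnmt, which methylates histamine, was below the low end on average at each day and was not called.

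In the reprimo and p53 list, 0 of 16 genes rose and 3 fell by day 7 by limma (2 higher at an unadjusted p under 0.05), and 7 rose and 4 fell between days 7 and 21. Rprm itself had means of 3.31, 3.25 and 3.63 at days 2, 7 and 21, below the low end on each day, and was not called. Perp, a desmosome protein induced by p53, rose by 1.59 ± 0.33 by day 21 (adjusted p = 0.00284), and Sfn, a 14-3-3 protein of epithelia that halts the cell cycle, rose by 1.52 ± 0.19 (adjusted p = 6.91e-05). The general epithelium list of 9 genes had array means of 6.21 to 6.86 at day 21, against 5.25 to 5.87 at day 7, with 4 genes called higher, and the mesothelium list of 5 genes 5.35 to 6.48, against 4.60 to 5.57, with 1 called higher. Over all genes 13.7% were called higher between these days. The part of these cell types in the Perp and Sfn results was not tested. Phlda3, a p53 target that restrains AKT, fell by 1.58 ± 0.15 by day 21 (adjusted p = 1.43e-05), and Gadd45a, a stress-induced growth inhibitor, rose by 1.43 ± 0.20 (adjusted p = 0.000158). In the LHFPL family, Lhfpl2 fell by 1.45 ± 0.16 by day 21 (adjusted p = 3.86e-05) and Lhfpl6 fell by 0.92 ± 0.20 (adjusted p = 0.0039). Lhfpl6 had means of 10.20, 11.09 and 10.17, and its rise to day 7 (adjusted p = 0.017) was lost in 6 of 16 alternatives, 3 of which left out litter 1 or 2 of day 2 or litter 3 of day 7, with adjusted p up to 0.0974.

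Of 23 genes of store-operated calcium entry and NFAT signalling, the pathway that Tmem178a restrains in mouse osteoclasts, 1 rose and 1 fell by day 7, and 5 rose and 5 fell between days 7 and 21. Plcg2, a phospholipase upstream of calcium release in blood cells, rose by 1.81 ± 0.22 by day 21 (adjusted p = 6.45e-05). Orai2, a calcium channel subunit, rose by 1.38 ± 0.24 (adjusted p = 0.000734). Rcan1, an NFAT target that inhibits calcineurin, fell by 1.26 ± 0.14 (adjusted p = 3.91e-05), and the phospholipase Plcg1 fell by 1.26 ± 0.19 (adjusted p = 0.000295). Tmem178b, the closest relative, had means of 4.02, 3.75 and 3.77 and was not called. In the 4 measured genes of the sodium leak channel, limma called 0 in any comparison, with 1 higher and 1 lower at an unadjusted p under 0.05 between day 7 and day 2, 0 between day 21 and day 7, and 1 lower between day 21 and day 2. Nalcn, the pore, had means of 4.45, 4.43 and 4.68, and Unc80, which links Unc79 to it, 3.72, 3.74 and 3.82. Prom2, the one relative of Prom1, had means of 5.55, 5.33 and 5.81 and was not called.

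Of 22 vesicle genes around Sytl2, 2 rose and 0 fell by day 7 by limma (1 lower at an unadjusted p under 0.05), and 4 rose and 2 fell between days 7 and 21. Rab27a, the small GTPase that Sytl2 binds, had means of 5.79, 5.76 and 7.27 at days 2, 7 and 21 and rose by 1.51 ± 0.18 between days 7 and 21 (adjusted p = 5.96e-05), while Sytl2 was already higher at day 7. Rab3b, a vesicle GTPase, rose by 1.01 ± 0.18 by day 7 (adjusted p = 0.00588) and was 1.19 ± 0.18 above day 2 at day 21 (adjusted p = 0.00094). Stx11 fell by 1.32 ± 0.21 by day 21 (adjusted p = 0.000409). Sytl3 rose between days 2 and 21 (adjusted p = 0.0157), a call lost without litter 2 of day 2 (adjusted p = 0.0623) and with values floored at the low end (adjusted p = 0.0826), and Sytl1, Sytl4 and Rab27b were not called. Of 14 genes of axonemal dyneins and their assembly beside Dnah7, limma called 0 between day 7 and day 2 and 0 between day 21 and day 7 (1 higher, and 1 higher and 2 lower, at an unadjusted p under 0.05). Dnai1 rose by 0.75 between days 2 and 21 (adjusted p = 0.00961), and Dnah1, another heavy chain, had means of 4.50, 4.69 and 4.76.

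Markers of other cell types, and some of fibroblasts, moved between the days in which the 10 genes differed. In bulk samples, fewer cells of a type and less RNA per cell cannot be told apart. The fibroblast list, 13 of 13 genes above the low end at each day, had array means of 10.08 to 10.46 at day 2, 10.33 to 10.46 at day 7 and 9.69 to 10.12 at day 21. Limma called 1 of these genes higher at day 7 than at day 2, and 1 higher and 4 lower at day 21 than at day 7. Over all genes, for this and the lists below, it called 7.02% higher and 4.41% lower at day 7 than at day 2. At day 21 against day 7 these shares were 13.7% higher and 24.4% lower. Tcf21 was highest at day 7, with means of 9.23, 10.12 and 7.68 at days 2, 7 and 21. Col1a2 had 12.57, 12.53 and 12.49, and Dcn 10.79, 10.66 and 11.95. The macrophage list had means of 8.83 to 9.15, 7.21 to 8.01 and 9.38 to 9.83 at days 2, 7 and 21, the opposite course to the 8 genes with a day 7 peak. Limma called 12 of its 19 genes lower at day 7 than at day 2 and 18 higher at day 21 than at day 7, with no call in the other direction. The endothelial list of 12 genes was highest at day 7 and lowest at day 21, as were the means of the 8 genes with a day 7 peak, with array means of 6.15 to 6.55, 6.76 to 7.03 and 5.32 to 5.77, 3 genes called higher at day 7 than at day 2 and 10 lower at day 21 than at day 7. The pericyte list of 9 genes had means of 6.57 to 6.88, 7.30 to 7.40 and 6.33 to 6.58, with 1 gene called higher and 7 lower at day 21 than at day 7. The partner genes called with the opposite course, among them Arg1, Plcg2 and Pparg, were lowest at day 7, as was the macrophage list. The part of these cell types in the profiles of the partners and of the 10 genes was not tested.

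Other lists concern the cell types best known for single genes. Of 11 markers of ciliated airway cells, 3 were below the low end at each day. At day 21 against day 7, 2 were called lower, as were 24.4% of all genes. Foxj1, the master regulator of motile cilia, had means of 5.63, 5.60 and 5.62, while Tekt1, a ciliary filament protein, had 4.98, 5.60 and 4.26. For Car3 and Pck1, the lipid-storing fibroblast and adipocyte list of 18 genes was lowest at day 7, with array means of 6.90 to 7.07, 6.32 to 6.66 and 7.01 to 7.44 at days 2, 7 and 21. Limma called 0 of its genes higher and 4 lower at day 7 than at day 2, beside 7.02% and 4.41% of all genes. At day 21 against day 7 it called 8 higher and 2 lower, beside 13.7% and 24.4%. Fasn, with means of 8.40, 8.72 and 7.90, and Gpam, with 4.97, 5.47 and 4.80, were highest at day 7. Adipoq, the hormone specific to fat cells, had means of 3.99, 4.25 and 4.10, close to the low end of 4.25 or below it. The skeletal and heart muscle list of 14 genes had 6, 6 and 5 genes below the low end at days 2, 7 and 21, with array means between 4.65 and 5.01. Limma called 2 of its genes higher and 2 lower at day 21 than at day 7, beside 13.7% and 24.4% of all genes. Pygm was highest at day 7, with means of 6.07, 7.00 and 5.54, and Myh1 lowest, with 10.08, 9.48 and 10.57.

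**Figure D4:**
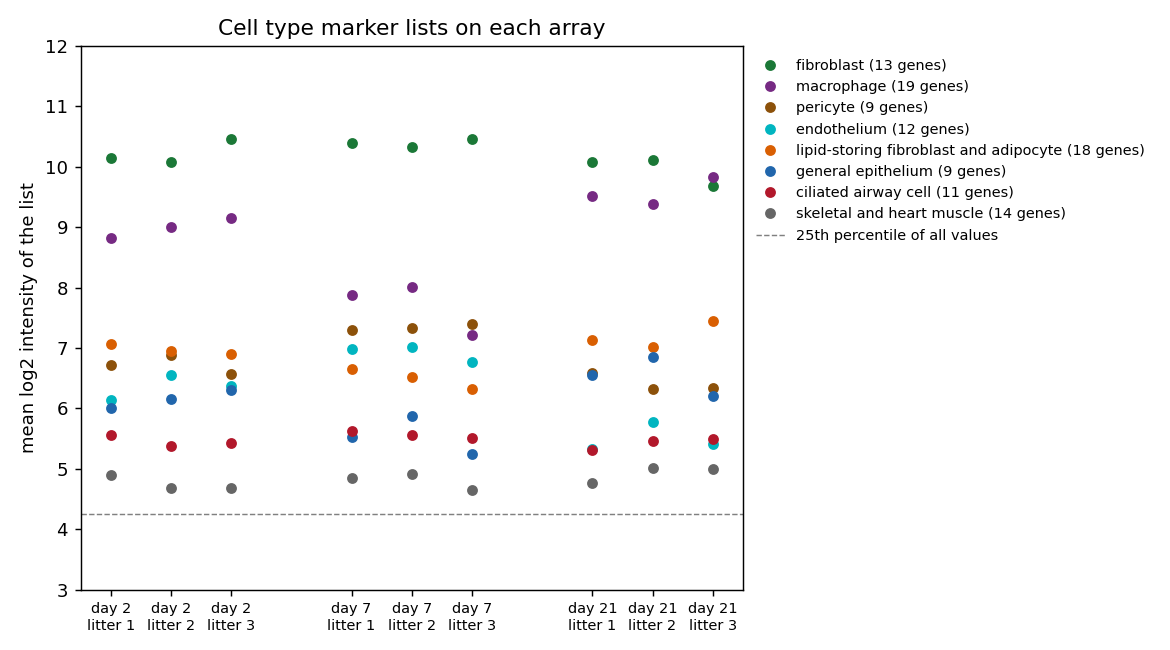
Mean log2 intensity (vertical axis) of 8 lists of cell type markers on each of the 9 arrays (horizontal axis, 3 litters at each of days 2, 7 and 21), with the low end dashed. The macrophage list is lowest at day 7 (7.21 to 8.01), and the endothelial and pericyte lists are highest at day 7 and lowest at day 21.

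The litters of a day offer a view of the genes that the choice by day means did not fix. At day 7, 7 of the 10 genes were highest on litter 3 (Rprml, Car3, Pck1, Prom1, Tmem178a, Unc79 and Dnah7), which also had the lowest macrophage mean, 7.21, against 7.87 and 8.01 in the other 2. Each of these 7 was lowest on litter 2. The other 3 genes (Lhfpl3, Sytl2 and Aoc1) were lowest on litter 3. The low macrophage mean was not particular to that list. The day 7 array of litter 3 had the lowest median log2 intensity of that day, 5.28. It also had the lowest day 7 mean of most marker lists, among them endothelium (6.76) and general epithelium (5.25). The fibroblast (10.46) and pericyte (7.40) lists were highest on it, and the mesothelium list (4.91) was between the other litters. At day 2, 8 of the 10 genes were lowest on litter 3. With the mean of each day subtracted, the 21 pairs among the 7 genes had a median correlation over the 9 arrays of 0.70 (0.00 to 0.89), and pairs between the 7 and the 3 a median of -0.34, while the median over all pairs of genes on the array was 0.03, with quartiles of -0.33 and 0.38. The split into 7 and 3 was made from the day 7 arrays after the values were seen, and these arrays enter the correlations. On the 6 arrays of days 2 and 21 alone, the 21 pairs among the 7 had a median of 0.53 (-0.18 to 0.99), with 17 of 21 above 0, and the pairs between the 7 and the 3 a median of 0.17, with 12 of 21 above 0. The medians of both kinds of pairs were thus closer there, and that between the sets was no longer negative.

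The strongest single likenesses within days were between Rprml and Unc79 (0.89), Tmem178a and Unc79 (0.88) and Car3 and Rprml (0.86). Against the macrophage list, Car3 (-0.83), Dnah7 (-0.80), Rprml (-0.71) and Prom1 (-0.68) were lower where the list was higher, and Lhfpl3 (0.73) and Aoc1 (0.61) were higher. Against the endothelial list, the correlation was lowest for Unc79 (-0.68), Car3 (-0.59), Pck1 (-0.58), Rprml (-0.56) and Tmem178a (-0.48), was -0.26 for Aoc1 and -0.15 for Dnah7, and was positive for Sytl2 (0.35), Prom1 (0.37) and Lhfpl3 (0.69). Against the pericyte list it was highest for Tmem178a (0.86), Dnah7 (0.71) and Unc79 (0.65), near 0 for Pck1 (0.04) and Prom1 (0.09), and negative for Lhfpl3 (-0.41) and Aoc1 (-0.51). Each correlation describes 9 arrays that share their scaling, with 6 degrees of freedom after the day means, and is no test.

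**Figure D5:**
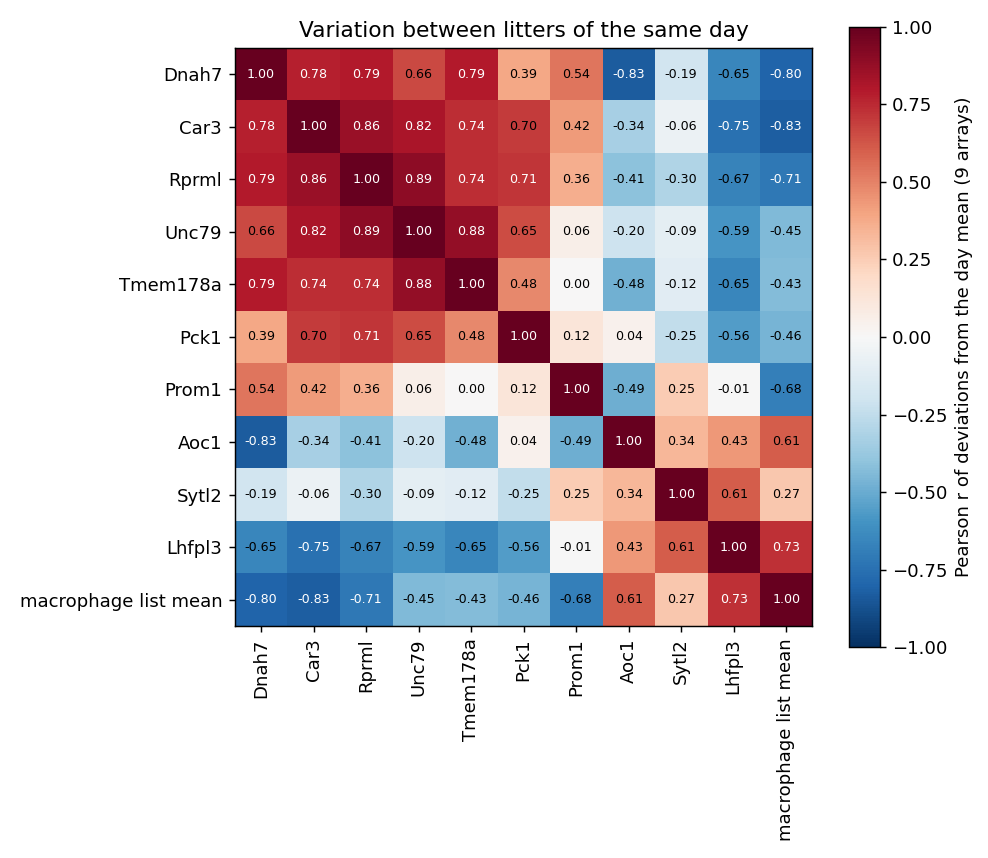
Pearson correlations over 9 arrays of the deviations of each gene from its day mean, for the 10 genes and the mean of the macrophage list (both axes), with colour and number giving the correlation. The 7 genes highest on litter 3 of day 7 form the red block at the upper left, from 0.00 for Prom1 and Tmem178a to 0.89 for Rprml and Unc79, and are blue against the macrophage list.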

How the data were processed

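Total RNA was labelled with biotin as cRNA and hybridised to 9 Affymetrix arrays, per the labels' protocols. Linear intensity values per probe set were deposited. The submitters' processing notes name RMA and the affy package, without versions, and the grouping or filtering of probes is not given in the sources used. RMA corrects background and scales arrays together, which compresses differences of dim probe sets, and the deposited array medians still ranged from log2 5.24 to 5.66. The number of arrays limits the precision, and litters differ within a day, so the errors cover spread between litters.

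The log2 of the deposited intensity was fitted with limma 3.58.1 in R 4.3.3 (a mean per day over all 9 arrays, eBayes defaults, two-sided, Benjamini-Hochberg within a comparison, calls at an adjusted p under 0.05). Of 31099 probe sets, 57 controls were left out and 31042 tested. In the platform annotation, 20826 probe sets had 1 gene symbol, 436 several and 9780 none; those with 1 symbol gave 14217 genes, each represented by its brightest probe set. The fit was tested before use on simulated data with known changes at day 7. Between day 7 and day 2 it called 58% of log2 changes of 1 and 94% of those of 2. A gene not called can therefore have changed. The simulated noise was independent between probe sets, and far fewer probe sets changed than were called in the data. These shares need not hold for the data.

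The 10 genes and all lists were chosen with earlier results of these data known. Named are all 10 genes, the 10 most alike over 10139 genes with a mean log2 of at least 5 and the 3 most alike to each, and from each partner list up to 4 called genes with the largest change per comparison plus its closest relatives. Markers were named after their values were seen. Alternatives were quantile normalization, median centring, a floor at the low end, a filter at a mean log2 of 5, the litter number as a block, a variance trend, the mean of a gene's probe sets and leaving out each array. Promoter sequences are RefSeq's (GRCr8), matched by gene ID for 7 genes and by symbol for Lhfpl3.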

Additional observations from a re-analysis of the deposited data

How the results depend on the processing

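Of the differences between days of the 10 genes, 1 changed direction: Aoc1 at day 7 against day 2 ranged from -0.07 without litter 2 of day 2 to 0.25 and was below 0 without litter 2 of day 7 too. Of 474 values under alternatives, 460 stayed within 1 SD of replicates and 14 moved further. With the mean of both probe sets, Car3 was -2.93 at day 21 against day 7 and -1.26 against day 2, and Unc79 was -2.88 and -2.18. With values floored at the low end, Dnah7 was -1.63 at day 21 against day 7 and 0 against day 2, and at day 21 against day 7 Pck1 was -1.96, Rprml -4.46, Unc79 -4.32 and Aoc1 -4.33. A filter at a mean log2 of 5 left out Dnah7 and Pck1. Leaving out each array, the genes higher without overlap at day 7 than at day 2 stayed at 9 to 9 and those lower at 0 to 0, those lower at day 21 than at day 7 were 9 to 10 and those higher 0 to 0, and at day 21 against day 2 there were 8 to 9 lower and 1 to 1 higher.

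Counts over the array depended more on the setting. Probe sets higher at day 7 than at day 2 were 1707, but 902 with median centring and 850 to 1814 without single arrays, the lowest without litter 2 of day 2, and those lower were 1068 and 673 to 1155. At day 21 against day 7, leaving out arrays gave 2760 to 3448 higher and 5050 to 5916 lower. At day 21 against day 2 there were 2118 higher, 3397 after quantile normalization and 1186 to 2565 without single arrays, the lowest again without litter 2 of day 2, and 2617 to 3990 lower. Partner genes higher at day 7 than at day 2 were 10, but 5 with median centring, 6 with the floor and 4 to 11 without single arrays, and those lower were 8, 5 with the floor and 3 to 10. At day 21 against day 7 the partner counts were 30 to 36 higher and 25 to 28 lower without single arrays. At day 21 against day 2 they were 25 higher, 38 after quantile normalization and 15 to 29 without single arrays, and 10 to 16 lower, the lowest without litter 3 of day 21. The causes were not tested.

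The labels do not say if litters with 1 number on different days are related. Arrays of 1 number on different days had correlations of deviations from day means of -0.24 to 0.41, and arrays of different numbers -0.28 to 0.24. Between days 2 and 7 the same-number values, 0.08, 0.22 and 0.41, were above the highest of the others, 0.06, but not between the other days, so the numbers were not shown to pair the samples over all days. The litter number as a replicate block gave 1504 probe sets higher and 999 lower at day 7 than at day 2, 3375 and 5904 at day 21 against day 7, and 2017 and 3800 at day 21 against day 2. Signals near the low end limit Dnah7 and Pck1 at days 2 and 21, and Rprml, Unc79, Aoc1, Car3 and Lhfpl3 at day 21.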
